A study of Zea mays with 157 samples.

Results

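In the maize inbred line B73, 201 of 39513 listed genes, or 0.509%, had their mRNA restricted to the primary root. They were selected on their values in the deposited B73 mRNA table: the lower of the 2 primary root libraries had to be 10 or more and at least 5 times the highest of the other 24 tissues. B73 values in root against the other tissues are therefore a description of the choice and carry no test. Maize roots anchor the plant and take up water and mineral nutrients. The primary root is the first to grow out of the embryo, and behind its cap and meristem lie an elongation zone and a zone of root hairs. Gene products known from cereal roots include nutrient transporters and channels, enzymes that modify the wall, and enzymes of defence metabolites. None of the 201 identifiers matched the gene table at hand, which follows another assembly, so the members are given by identifier and no function is assigned to them.

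The study surveyed 26 tissues of B73, of the inbred Mo17 and of the F1 of B73xMo17, all untreated and grown in a greenhouse. The root libraries were primary root at stage V1 and primary root labelled 6DAS. The other 24 tissues of each line were 11 leaf libraries, 9 from the shoot apical meristem (SAM), ears and tassels, 2 from the stem (stem and internode at V6) and 2 from the kernel (embryo and endosperm at R2). For every tissue and line there was 1 mRNA library and 1 circRNA library, each a pool in equal amounts of 3 separate extractions from 5 to 10 plants. Spread between plants was thus not measured, and each p-value below rests on the spread between tissues or between lines.

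The mRNA tables give no depth. B73 and F1 mRNA values are in a unit that no label or header names, and Mo17 values are TPM, a per-length share of the transcripts. Levels set across the lines come from tables that the authors normalized separately. The root libraries went with their labels: over 10832 genes that are not members, each was most like the same root stage in both other lines, with Spearman correlations of 0.922 to 0.966, then the other root stage. The closest tissue after the roots was stem or internode, at 0.787 to 0.842. One feature held up to 51.4% of a B73 leaf column, 72.1% of a Mo17 leaf column and 49.2% of an F1 leaf column, and no more than 1.81% of any root column. Where values are called scaled below, a size factor per library was therefore divided out, the median over genes at 1 or more in all 26 libraries of the ratio to their geometric mean. With B73 values scaled, 134 genes met the same rule, 132 of them members.

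The members ran from just inside the limits of the rule to far beyond them. The lower root value had a lower quartile of 14.7, a median of 24.3 and a range of 10.03 to 1977, and 22 members reached 100 or more. The highest value in any other tissue had a median of 1.02, and 98 members reached 1 in none of the 24 other tissues. The ratio of the lower root value to the highest other value had a lower quartile of 8.77 and a median of 24.4 over the 200 members where it could be formed. It was 10 or more in 142 members and 100 or more in 65. The remaining member was listed at 0 in every other tissue.

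The limits cut through a continuous range. The 3 members with the smallest lower root value were Zm00001d028917 (10.03), Zm00001d016724 (10.03) and Zm00001d011778 (10.05), while Zm00001d036072 (9.75), Zm00001d042814 (9.58) and Zm00001d024745 (9.58) stood just outside. For the ratio, Zm00001d021736 (5.01), Zm00001d026554 (5.18) and Zm00001d041645 (5.22) stood just inside. Zm00001d009494, just under the limit of 5, Zm00001d004401 (4.99) and Zm00001d004526 (4.94) were just outside.

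The member with the most mRNA in root was Zm00001d023994. In B73 it had 1977 in V1 root and 2189 in 6DAS root, and its other tissues ran from a median of 5.29 to 189.7 in V1 SAM. In F1 it had 1457 and 1647 in the roots and at most 190.3 elsewhere, in husk leaf. It is also one of the members found in many tissues at a low level, with 19 of 24 other B73 tissues at 1 or more.

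Zm00001d031909 and Zm00001d041173 combined a very high root level with almost nothing elsewhere. Zm00001d031909 had 620.5 in V1 root and 1306 in 6DAS root of B73 and at most 0.454 in the other 24 tissues. Zm00001d041173 had 612.3 and 852.2 in the roots and at most 1.68 elsewhere, in V1 SAM. Both were higher at 6DAS than at V1 in B73, and the lower root value was 1366 times the highest other value for the first and 364.5 times for the second.

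The other members with the highest lower root value spread over both patterns. Zm00001d029546 had 953.3 in V1 root, 328.8 in 6DAS root and at most 8.16 elsewhere. Zm00001d047117 had 310.8, 447.4 and at most 6.70, and Zm00001d026163 had 252.7, 290.2 and at most 2.47. Their highest other tissue was husk leaf for the first and V1 SAM for the other pair.

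In the remaining high members another tissue came closer to root. Zm00001d029359 had 789.1 and 434.8 in V1 and 6DAS root and 45.9 in internode. Zm00001d004700 had 470.9 and 386.4 in the roots and 47.1 in topmost leaf-N at V3. Zm00001d012090 (279.5 and 245.9) reached 29.3 in leaf base-N at V5, and Zm00001d017288 (266.1 and 235.3) reached 33.6 in husk leaf, so the nearest tissue differed from gene to gene.

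By the ratio to the highest other value plus 1, Zm00001d031909 and Zm00001d041173 led again, followed by Zm00001d003707, Zm00001d017508 and Zm00001d034382. Zm00001d003707 had 233.2 in V1 root and 140.8 in 6DAS root and was listed at 0 in 17 of 24 other tissues, with a highest value of 0.148. Zm00001d017508 had 157.4 and 129.6 and at most 0.166 elsewhere. Zm00001d034382 had 321.7 and 165.5 and at most 0.611 elsewhere.

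All members together made up 3.37% of the B73 column total in V1 root and 2.92% in 6DAS root. In the other 24 tissues their share had a median of 0.0148% and a highest value of 0.0810%, in stem. In F1 the same 201 genes made up 1.26% and 1.32% of the root columns and at most 0.0391% elsewhere, again in stem. The F1 column sums also hold Mo17 identifiers, so the shares of the 2 lines are not on 1 base.

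Outside the root the traces of these genes were uneven. On scaled values, 48 of 201 members were at 1 or more in B73 husk leaf and 40 in topmost leaf-L. The other B73 leaf libraries ran from 25 in leaf base-L to 37 in the third leaf. Stem had 32, V1 SAM 29, internode 25 and endosperm 15. Only 7 to 20 members reached 1 in each of the other 8 meristem, ear and tassel libraries, and 8 in embryo. F1 gave 61 members in husk leaf, 28 to 41 in the other leaf libraries, 33 in stem and 28 in internode. V1 SAM had 24 and endosperm 21, and the other meristem, ear and tassel libraries had 5 to 12. In Mo17, where 57 members could be followed, 8 to 16 were at 1 or more in each leaf library. Topmost leaf-L and leaf base-N had 16 each and husk leaf 14. Stem had 15, and V1 SAM and internode 13 each. Fewer cells expressing a gene and less RNA per cell cannot be told apart in such bulk tissues.

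**Figure D1:**
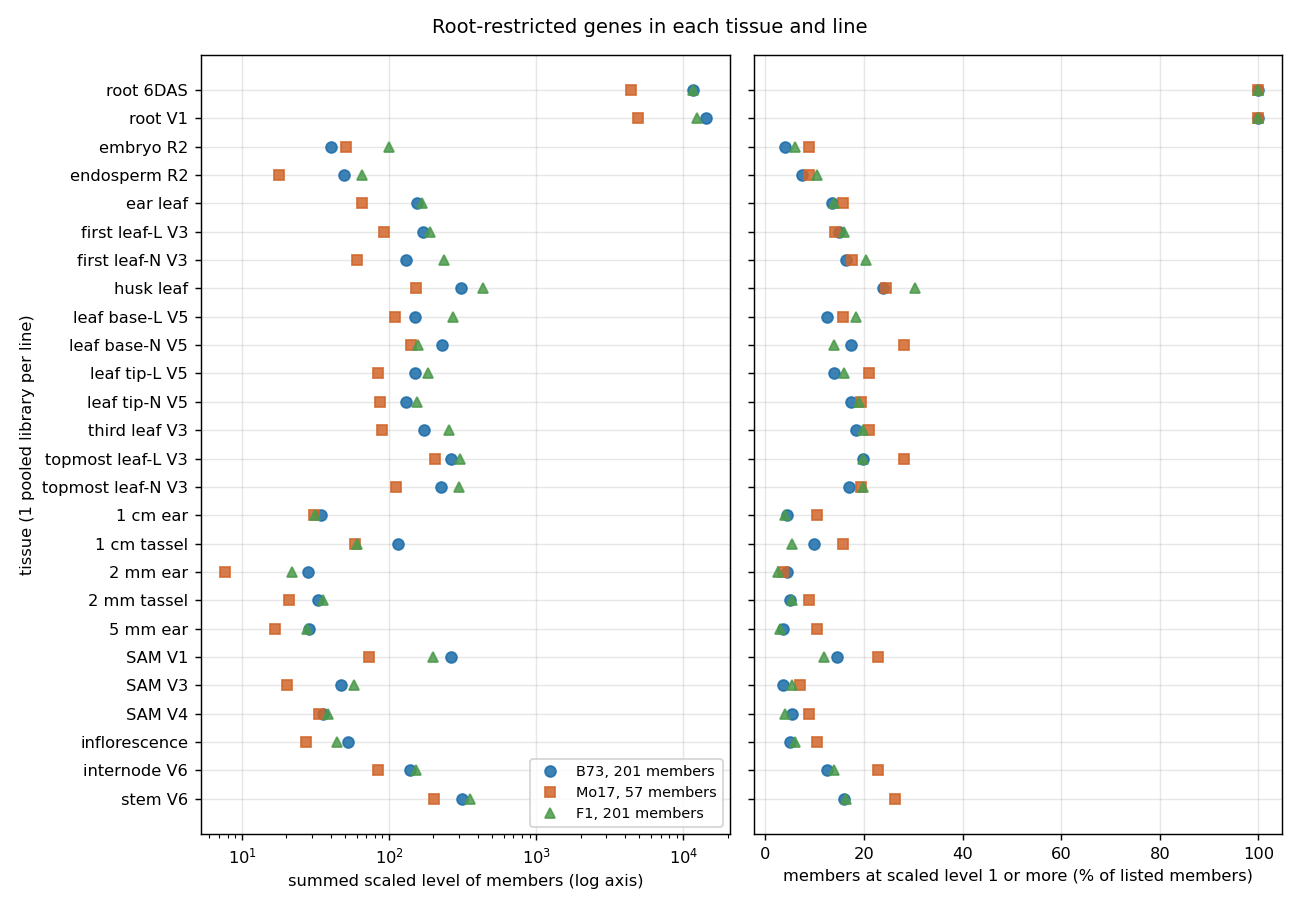
The left panel plots the summed scaled level of the root-restricted genes in each tissue on a log axis, and the right panel the percent of listed members at a scaled level of 1 or more. Each point is 1 pooled library of B73 or F1 (201 members) or Mo17 (57 members), and the roots of all 3 lines stand apart, with B73 at 14198 and 11639 in root and at most 313.7 elsewhere.

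The tissue that came second to root depended on the scaling. As deposited, V1 SAM was the highest other tissue for 35 of 201 members in B73, husk leaf for 22 and leaf base-N for 17. By organ, leaves held it for 94 members as deposited and for 133 on scaled values, and meristems, ears and tassels for 65 and 40. In F1, husk leaf held it for 37 members and V1 SAM for 16 as deposited.

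The question of whether the restriction holds in other lines could be put to all 201 members in F1 and to 57 in Mo17. The deposited list of paired genes gives a Mo17 partner for those 57, or 28.4% of members, against 28.1% of all B73 genes. The other 144 have none in that list and were not analysed in Mo17. For genes selected by the same rule on embryo alone and on endosperm alone, the paired share was 44.7% of 208 and 39.7% of 146.

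In Mo17 the lower root value of the 57 members ran from 2.30 to 653.7 with a median of 37.5, and the highest other value had a median of 1.97. In 52 of 57 members both root values lay above all 24 other tissues, where 9.1% of the 10912 genes listed for both inbreds did so. The exceptions, named because they are so few, were Zm00001d004700, Zm00001d050412, Zm00001d022084, Zm00001d004534 and Zm00001d015032. On scaled values 38 of 57 members were at 1 or more in both roots and at 5 times the highest other tissue, against 1.46% of those 10912 genes.

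The test of root against the other 24 tissues in Mo17 was made with limma on log2(scaled value + 1) and adjusted by Benjamini-Hochberg over all 27103 genes tested. It called 54 of 57 members higher in root, against 7.03% of all genes called higher. The log2 difference of the members ran from 1.48 to 8.82 with a median of 4.64, and the median over all genes tested was -0.02. No member was lower in root, at an adjusted or unadjusted p under 0.05. On values as deposited the median of all genes moved to 0.48 and that of the members to 5.26. Of the 57 members, 29 were at 1 or more in at least 2 tissues other than root, so the rest passed the filter on low values through the roots themselves, and their calls add little. Without the V1 root library 26 members were called and without the 6DAS root library 24, of the 35 that then passed the filter.

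Zm00001d031909 was restricted to root in Mo17 as well. It had 653.7 TPM in V1 root and 1286 TPM in 6DAS root, and at most 1.51 TPM elsewhere. Both root libraries lay far above the other 24. Its log2 difference was 8.82 ± 0.31 (SE), with an adjusted p of 6.72e-19 by limma and Benjamini-Hochberg. Its root level relative to the median gene was below that in B73, with a log2 difference of -0.88 in Mo17 and of -1.08 in F1, formed as for the root levels of all members further on.

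The members that fell short in Mo17 did so in different ways. Zm00001d004700 had 755.2 TPM in V1 root and 148.9 TPM in 6DAS root, but stem reached 155.0 TPM. Its log2 difference of 5.05 ± 1.42 (SE) still passed limma's test, at an adjusted p of 0.0227. Zm00001d022084 had 8.56 TPM in V1 root, 29.1 TPM in 6DAS root and 23.9 TPM in embryo, a tissue that was also its highest other one in B73, at 4.18, and in F1, at 22.4.

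The 3 members not called in Mo17, named for that reason, were Zm00001d053349, Zm00001d004534 and Zm00001d015032. Zm00001d053349 had 160.5 and 48.4 TPM in the roots and 25.1 TPM in leaf base-L, with a log2 difference of 3.66 ± 1.61 (SE) and an adjusted p of 0.209 by limma. Zm00001d004534 had 9.40 and 5.86 TPM in the roots and 22.1 TPM in 1 cm tassel, with a difference of 1.65 ± 0.93 and an adjusted p of 0.379. Zm00001d015032 had 29.9 and 10.5 TPM in the roots and 13.2 TPM in embryo, with a difference of 1.77 ± 0.65 and an adjusted p of 0.106. Only the first of them held both roots above every other tissue in Mo17.

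In F1 the lower root value of the 201 members ran from 4.29 to 1457 with a median of 25.7. Both roots lay above all 24 other tissues in 200 of 201 members, where 6.43% of the 38566 genes listed for B73 and F1 did so. The exception was Zm00001d026554, with 10.4 and 11.7 in root and 11.9 in husk leaf, one of the members nearest the ratio limit in B73. On scaled values 147 of 201 members were at 1 or more in both roots and at 5 times the highest other tissue, against 1.02% of those genes.

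The same limma test in F1 called 200 of 201 members higher in root, against 7.75% of the 45071 genes tested. The log2 difference of the members ran from 1.96 to 8.47 with a median of 4.30, beside -0.07 over all genes. On values as deposited those medians were 4.81 and 0.23. Here 81 of 201 members were at 1 or more in at least 2 tissues other than root. As in Mo17, the rest passed the filter on low values through the roots themselves, and their calls add little. Without the V1 root library 90 members were called and without the 6DAS root library 98, of the 109 that then passed the filter. The member not called was Zm00001d053410, with 71.7 and 64.5 in root and 24.3 in the third leaf, and a log2 difference of 3.79 ± 1.53 (SE) at an adjusted p of 0.138.

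**Figure D2:**
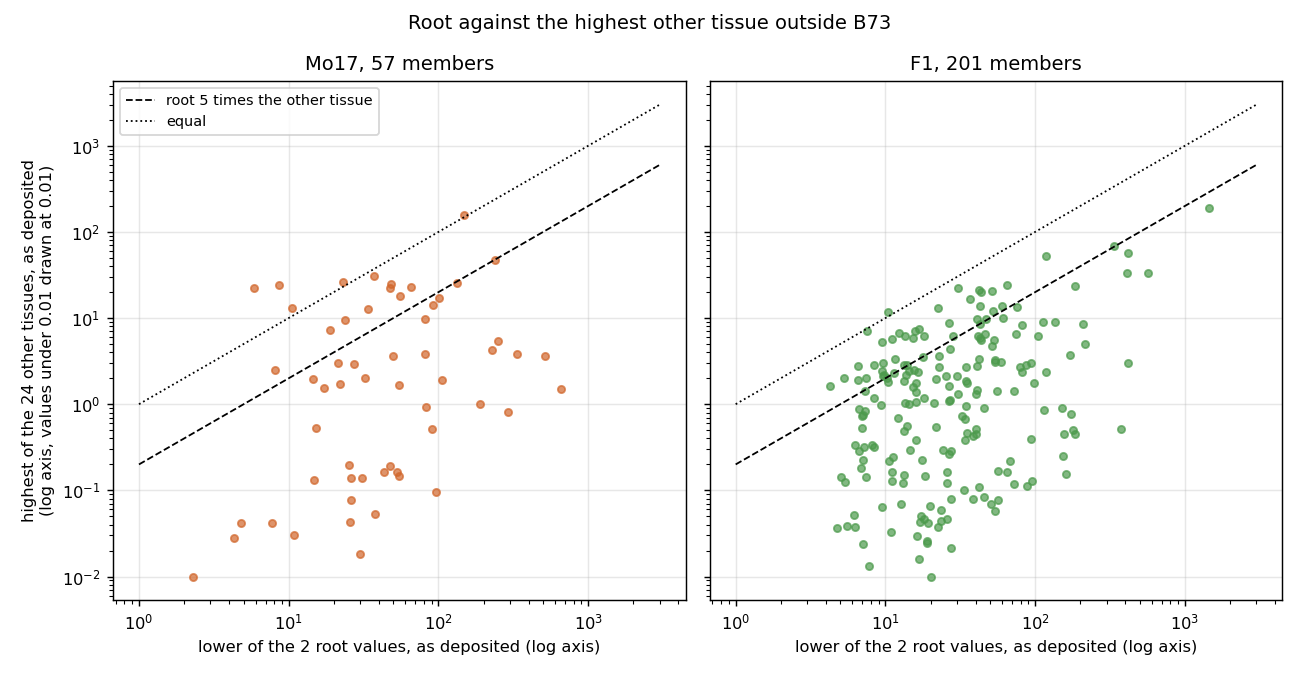
Each point is a root-restricted gene in Mo17 (57) or F1 (201), with the lower of its 2 root values on the horizontal log axis and the highest of its 24 other tissues on the vertical log axis, as deposited. Below the dotted line the roots exceed every other tissue, as in 52 of 57 members in Mo17 and 200 of 201 in F1, and below the dashed line they do so by at least 5 times.

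Root levels of the members were compared between lines as differences of the mean log2(scaled value + 1) over the 2 roots. Because the tables were normalized separately, each difference is given relative to the median of all genes at 1 or more in the roots of both lines. That median was 0.65 for Mo17 minus B73 over 6354 genes. For F1 minus B73 it was 0.33 over 6421 genes with a partner and -0.26 over 11118 without, so F1 members were set against the median of their own class, a choice made after this gap was seen. The sources used here do not say how F1 values of paired genes were made, and whether they average over both parental copies is not known, so the F1 value of a paired member is given as listed. These differences have no test. Of the 57 members, 37 lay within 1 log2 unit of B73 in Mo17, with a median of -0.09. In F1, 184 of 201 members lay within 1 log2 unit, with a median of -0.08. The share of all genes this close to B73 was not computed, so these counts do not set members apart from other genes. The members were chosen for high B73 root values, a choice that by itself favours lower values in another line.

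The lowest member in Mo17 was Zm00001d045135. It had 26.7 and 27.6 in V1 and 6DAS root of B73, 3.23 and 2.30 TPM in Mo17, and 23.5 and 35.2 in F1. Its relative root difference was -3.65 in Mo17 and -0.31 in F1. It remained confined to root in Mo17, where all 24 other tissues were listed at 0.

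Zm00001d024865 was next, with 10.8 and 67.2 in the B73 roots, 4.30 and 10.5 TPM in Mo17 and 5.01 and 28.3 in F1. Its relative difference was -2.69 in Mo17 and -1.47 in F1. In all 3 lines the 6DAS root was the higher. Zm00001d007631, Zm00001d022084 and Zm00001d032911 followed with differences of -1.97, -1.93 and -1.84 in Mo17 and of -0.02, -0.45 and -0.72 in F1.

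At the other end stood Zm00001d052581, Zm00001d033794 and Zm00001d052585. Zm00001d052581 had 15.3 and 14.5 in the B73 roots, 100.2 and 82.4 TPM in Mo17 and 79.1 and 40.3 in F1. Zm00001d033794 had 23.4 and 18.5 in B73, 100.8 and 134.4 TPM in Mo17 and 90.3 and 42.04 in F1. Zm00001d052585 had 70.4 and 51.9 in B73, 407.2 and 227.6 TPM in Mo17 and 175.0 and 115.3 in F1. Their relative differences were 1.60, 1.51 and 1.40 in Mo17 and 1.44, 1.12 and 0.82 in F1. Both differences subtract the same B73 values, and the 3 were chosen by the Mo17 difference. The F1 differences are therefore not a separate observation, here or for the lowest members. The identifiers of Zm00001d052581 and Zm00001d052585 lie 4 numbers apart.

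**Figure D3:**
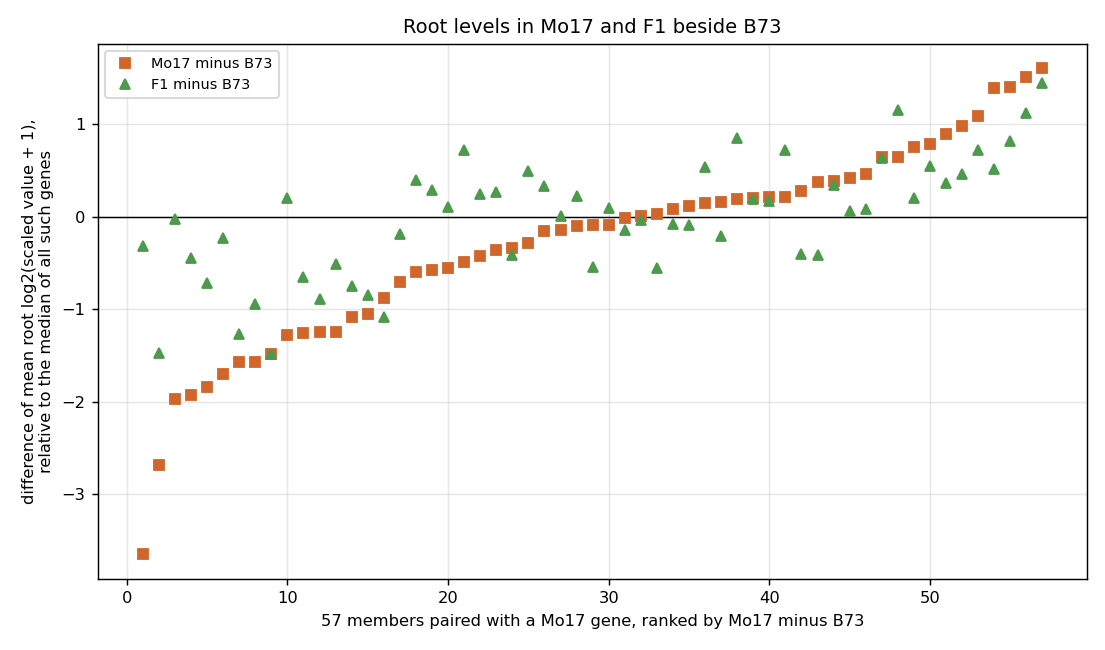
The 57 members paired with a Mo17 gene are ranked on the horizontal axis by the difference of their mean root log2(scaled value + 1) between Mo17 and B73. The vertical axis gives that difference (squares) and F1 minus B73 (triangles), each relative to the median of all such genes; the Mo17 values run from -3.65 to 1.60.

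V1 and 6DAS root were compared over the 3 lines with limma on log2(scaled value + 1), with the line as a block. The 7776 genes tested were listed in all 3 tables and at 1 or more in at least 2 of the root libraries. The lower B73 value of the pair had entered the choice of members, so the members' calls in this test are a description, and nothing is read from their shares against those of all genes. Of the 57 paired members, 17 were higher at V1, or 29.8%, where 13.5% of all genes were. Another 10 were higher at 6DAS, or 17.5%, where 17.3% of all genes were. Without Mo17, 36.8% and 22.8% of members were called higher at V1 and at 6DAS, beside 14.2% and 15.5% of all genes, and without F1 38.6% and 15.8%, beside 11.7% and 12.2%. The Mo17 and F1 roots alone, which the choice did not use, gave 0 calls by limma over all 7689 genes, members included. At an unadjusted p under 0.05, 15 members, or 26.3%, were higher at V1 there, beside 12.9% of all genes, and 11 members, or 19.3%, were higher at 6DAS, beside 18.1%. V1 was the higher stage in both Mo17 and F1 for 19 of 57 members, or 33.3%, beside 34.2% of all genes tested, and 6DAS for another 19, beside 39.9%. Without the line block limma called 0 of all 7776 genes, with 13 and 8 members at an unadjusted p under 0.05. In 35 of 57 members, or 61.4%, all 3 lines went in 1 direction, beside 64.04% of all genes tested.

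The members called with the largest difference towards V1 were Zm00001d027947, Zm00001d018737 and Zm00001d041111. Zm00001d027947 had 69.5 in V1 root and 20.4 in 6DAS root of B73, 159.2 and 81.4 TPM in Mo17, and 216.4 and 58.8 in F1. Its log2 difference was 1.62 ± 0.24 (SE), with an adjusted p of 0.0095 by limma, and 1.48 with an adjusted p of 0.101 without B73. Zm00001d018737 (1.59 ± 0.24) and Zm00001d041111 (1.55 ± 0.23) were also higher at V1 in 3 of 3 lines. Zm00001d041111 had 49.1 and 12.997 in B73, 205.3 and 54.5 TPM in Mo17 and 70.4 and 45.7 in F1.

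The largest differences towards 6DAS were those of Zm00001d006365, Zm00001d024865 and Zm00001d027855. Zm00001d006365 had 17.1 in V1 root and 51.5 in 6DAS root of B73, 10.8 and 62.9 TPM in Mo17, and 9.86 and 45.3 in F1. Its V1 minus 6DAS difference was -1.88 ± 0.21 (SE), with an adjusted p of 0.0072 by limma, and -2.15 with an adjusted p of 0.0824 without B73. The differences of Zm00001d024865 (-1.82 ± 0.24) and Zm00001d027855 (-1.54 ± 0.17) had the same sign in 3 of 3 lines. Zm00001d031909, the paired member with the highest level, was lower at V1 in every line, by -0.88 in B73, -1.06 in Mo17 and -0.93 in F1.

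**Figure D4:**
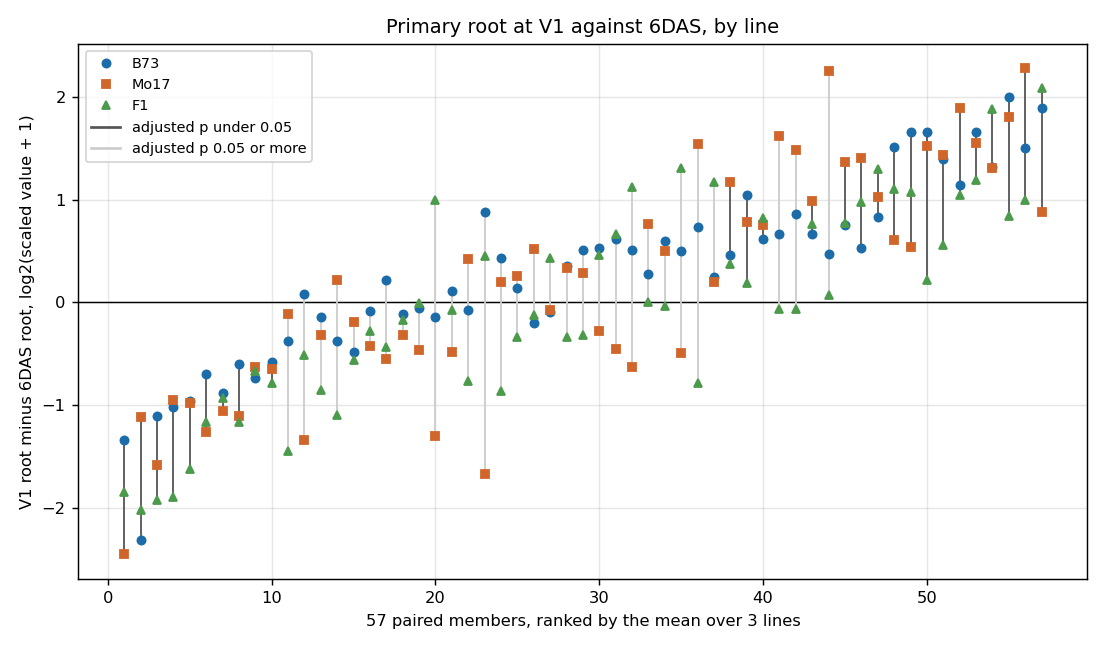
For the 57 paired members, ranked by their mean over the lines, the vertical axis gives V1 minus 6DAS root as a difference of log2(scaled value + 1) in B73 (circles), Mo17 (squares) and F1 (triangles), joined by a line. Dark lines mark the 27 members with an adjusted p under 0.05 by limma, 17 above 0 and 10 below. These calls rest in part on the B73 values that chose the members. Without B73, or without the line block, 0 members were called.

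To reach the members with no Mo17 partner, the stages were also set side by side in the F1 roots alone, which the choice of members did not use. V1 was higher by over 1 log2 unit in 35 of 201 members, or 17.4%, beside 6.25% of 20990 genes at 1 or more in an F1 root. In 29 members, or 14.4%, 6DAS was higher by over 1 log2 unit, beside 7.68% of those genes. The groups differ in level: the lower F1 root value of members was at least 4.29 as deposited, while the other genes needed only 1 in a root. Low genes show smaller differences on this scale, so the shares are not on 1 base. With 1 library per stage these F1 shares have no test. Adding the B73 roots allowed a limma test, chosen after the data were seen, whose member shares again rest in part on values of the choice and are a description only. Of all 201 members, 64 were higher at V1, or 31.8%, where 14.1% of the 20484 genes tested were. Another 32 were higher at 6DAS, or 15.9%, where 14% were. On values as deposited the split was 41 to 44, or 20.4% and 21.9% of members, beside 8.65% and 20.7% of all genes. Without the line block limma called 0 of all 20484 genes, with 48 members higher at V1 and 26 at 6DAS at an unadjusted p under 0.05. Across the 201 members the V1 minus 6DAS differences in B73 and F1 had a Pearson correlation of 0.81, beside 0.79 over 17539 genes at 1 or more in these roots. These are correlations across genes, which are not independent.

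The widest stage difference of any member, named after its values were seen, was that of Zm00001d035683. It had 26.3 in V1 root and 436.3 in 6DAS root of B73, and 13.4 and 352.0 in F1. Its V1 minus 6DAS difference was -3.80 in B73 and -4.36 in F1 on the log2 scale. At the V1 end Zm00001d016760 had 287.5 and 65.4 in B73 and 267.5 and 74.98 in F1, a difference of 2.30 in B73 and 2.04 in F1.

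Some members were neighbours by number. In these identifiers the number follows the position: of 10295 pairs of circRNA host genes within 5 numbers of each other, 99.7% lay on 1 chromosome, at a median distance of 59.2 kb. By that measure 47 members, or 23.4%, had another member within 5 numbers, in 22 runs. The same share was 15.4% of the 208 embryo-restricted and 4.11% of the 146 endosperm-restricted genes, with no test of the difference. Such a share grows with the length of a list, and none was computed for lists drawn from all genes. The sources used here do not say how reads of near-identical copies were assigned, so values within a run may share reads.

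The longest run was Zm00001d029274, Zm00001d029275, Zm00001d029279 and Zm00001d029280. In V1 and 6DAS root of B73 they had 57.5 and 40.6, 67.998 and 24.9, 56.4 and 21.03, and 44.6 and 18.97. All 4 were thus higher at V1 in B73, and in F1 the last 3 were, while Zm00001d029274 had 54.1 and 61.1. Another run, Zm00001d047114, Zm00001d047116 and Zm00001d047117, went the other way, with 33.7 and 48.1, 21.9 and 38.7, and 310.8 and 447.4. Neighbours did not always share a direction: Zm00001d052386 had 22.4 and 89.8, and Zm00001d052387 had 24.8 and 12.0.

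Few members hosted circRNAs. A circRNA is a closed ring formed when a splice donor joins an acceptor upstream of it. A deposited catalogue for each inbred assigns each one to a host gene, by position on B73 RefGen_v4 or on Mo17. By the B73 catalogue 24 of the 201 members, or 11.9%, hosted a circRNA, against 33.2% of all B73 genes. Of the 8188 genes with a lower root value of 10 or more, 69.97% did. Counting only circRNAs found in a B73 root library, 17 members, or 8.46%, were hosts, against 37.5% of those 8188 genes. Members reached 1 in a median of 1 of the other 24 tissues and the 8188 genes in 24, while the lower root value had a median of 24.3 in members and 22.01 in the larger group. What part the number of tissues played in the catalogue was not tested. Of the genes restricted to embryo 18.3% were hosts, and of those restricted to endosperm 46.6%.

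The catalogues held 88 circRNAs on those 24 members by B73 position and 10 on 8 Mo17 partner genes. Together these were 95 circRNAs on 29 members, with 3 placed in both genomes. Of them 61 were listed for B73, 50 for F1 and 6 for Mo17. Values are RPM, reads scaled to the depth of the library. The smallest value above 0 in a root library was 0.0545 to 0.0760 RPM. Only 35.8% to 70.04% of the values above 0 were whole multiples of it, within 0.02 of that value, so values could not be turned into reads and the depth is unknown. A circRNA listed at 0 was not detected, which does not show it absent.

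In B73, 40 of 61 circRNAs of the members, or 65.6%, were found in root only, beside 6.19% of all 53558 listed circRNAs, 10 in root and elsewhere and 11 elsewhere only. In F1, 29 of 50 were found in root only, beside 4.73% of all listed circRNAs, 9 in root and elsewhere and 12 elsewhere only. In Mo17, 2 of 6 were found in root only, beside 3.50% of all, 1 in root and elsewhere and 3 elsewhere only. Only 23 of the 61 in B73 and 11 of the 50 in F1 were above 0 in 2 or more libraries. Many root-only entries thus rest on 1 library. The hosts Zm00001d033794 and Zm00001d023994 carried 14 and 15 of the 61 in B73, so the entries are not spread evenly over the members. Summed over the members in B73, their circRNAs reached 7.23 RPM in V1 root and 5.46 RPM in 6DAS root. Of these root sums Zm00001d033794 alone gave 4.75 RPM and 3.27 RPM. The sums in the other 24 tissues had a median of 0.0529 RPM and reached at most 0.661 RPM, in stem. In F1 the sums were 9.32 RPM and 4.26 RPM in the roots and at most 1.10 RPM elsewhere, in husk leaf. In Mo17 they were 0.472 RPM and 0.547 RPM and at most 0.155 RPM.

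The limma test on log2 RPM took circRNAs above 0 in at least 2 libraries. It called 19 of 23 hosted circRNAs higher in root in B73, against 1.22% of the 21416 circRNAs tested, 8 of 11 in F1, against 0.586% of 31899, and 1 of 1 in Mo17, against 0.428% of 18245. Of these hosted circRNAs 0 were lower in root, by adjusted or unadjusted p. Only 4 of the 23 in B73, 4 of the 11 in F1 and 0 of the 1 in Mo17 were above 0 in 2 or more tissues other than root. Most thus entered the test through the roots, and their calls add little. Other circRNAs could enter through any tissue, so the shares of all circRNAs tested are not on 1 base with these counts. Of circRNAs above 0 in at least 5 libraries, 3 of 3 were called in B73 and 3 of 3 in F1. In B73, 8 of the 9 that could be tested were called without the V1 root library, and 7 of 7 without the 6DAS root library.

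Zm00001d033794 had the highest summed level of any member host in each of the 6 root libraries. It carried 14 catalogued circRNAs between positions 273839592 and 273843614 on the minus strand of chromosome 1 in B73 RefGen_v4, with spans of 342 to 2936 bp. Summed, they reached 4.75 RPM in V1 root and 3.27 RPM in 6DAS root of B73, and at most 0.294 RPM elsewhere, in stem. In F1 the sums were 5.06 RPM and 1.82 RPM in the roots and at most 0.584 RPM elsewhere, in husk leaf. The annotation of exons on this build was not used here, so no exon is assigned to these junctions.

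Its leading circRNA in B73 was Zmcirc030684, spanning 1991 bp from 273839845 to 273841835. It had 2.45 RPM in V1 root and 1.65 RPM in 6DAS root, and at most 0.0897 RPM in the 5 other tissues where it was found. Both roots lay above all other B73 tissues, with a log2 difference of 5.198 ± 0.48 (SE) and an adjusted p of 4.33e-09 by limma. In F1 it had 1.48 RPM and 0.633 RPM and at most 0.125 RPM elsewhere, a difference of 4.09 ± 0.51.

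Zmcirc030685 and Zmcirc025376 of Zm00001d033794 also had both roots above every other tissue in B73 and F1, in part by a small margin. Zmcirc030685 (273840035 to 273842027) had 0.909 RPM and 0.532 RPM in the B73 roots and at most 0.0735 RPM elsewhere, in stem. In F1 it had 1.15 RPM and 0.380 RPM in the roots and 0.229 RPM in husk leaf. Zmcirc025376 (273839592 to 273841604) had 0.691 RPM and 0.285 RPM in the B73 roots and 0.220 RPM in topmost leaf-N at V3. Its F1 values were 2.18 RPM and 0.684 RPM in the roots and 0.167 RPM in the same leaf. The order of the rings by level thus differed between the lines. Zmcirc035364 and Zmcirc030684 share the end at 273839845, and Zmcirc030685, Zmcirc035365 and Zmcirc048074 share the end at 273840035.

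In Mo17 this host had 1 listed circRNA, Zmcirc007563, with 0.410 RPM in V1 root, 0.430 RPM in 6DAS root and 0.155 RPM in husk leaf, its only other tissue. Its log2 difference was 3.55 ± 0.46 (SE). In B73 the same circRNA had 0.182 RPM and 0.304 RPM, and in F1 0.141 RPM and 0.119 RPM. The linear mRNA of this host was among those highest in Mo17 relative to B73, as given above, while its summed circRNA was lower there than in B73, with 1 catalogued ring placed on the Mo17 partner.

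**Figure D5:**
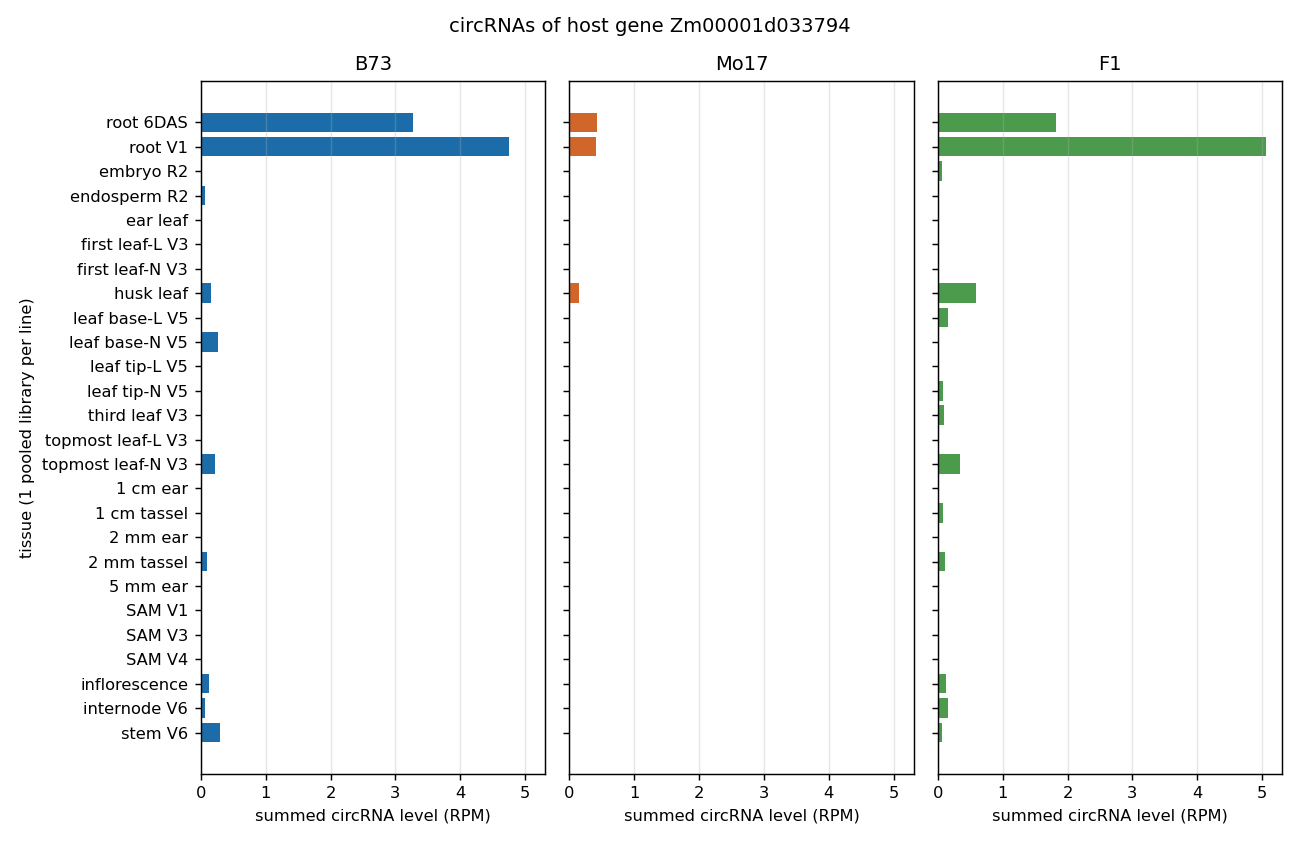
Bars give the summed level in RPM of the circRNAs of Zm00001d033794 in each tissue, with 1 pooled library per bar, for B73, Mo17 and F1. In B73 the roots reached 4.75 and 3.27 RPM and no other tissue passed 0.294 RPM, and in Mo17 husk leaf was the only other tissue with a value.

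The member with the most mRNA gave less circRNA than this one. Zm00001d023994, on chromosome 10 between 35175505 and 35179364, had 18 catalogued circRNAs that summed to 0.891 RPM in V1 root and 1.11 RPM in 6DAS root of B73, at 1977 and 2189 of mRNA. Zm00001d033794 had 23.4 and 18.5 of mRNA in the same libraries. Whether the B73 mRNA values are per length is not stated, so the levels of different genes are set side by side only. The leading ring of Zm00001d023994, Zmcirc036742, had 0.418 RPM and 0.361 RPM in the B73 roots and 0.102 RPM in husk leaf, and 0.714 RPM and 0.557 RPM in F1 roots and 0.187 RPM in husk leaf.

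Zm00001d041173 and Zm00001d019497 gave circRNA in root with little or none elsewhere. The 4 catalogued rings of Zm00001d041173 summed to 0.563 RPM and 0.152 RPM in B73 and 0.188 RPM and 0.355 RPM in F1, and were found in no other tissue of either line. The 10 rings of Zm00001d019497 summed to 0.418 RPM and 0.114 RPM in B73 and 2.48 RPM and 0.659 RPM in F1. In F1, Zmcirc067438 of this host had 1.16 RPM and 0.177 RPM and Zmcirc067439 had 0.620 RPM and 0.405 RPM, and neither was found in any other F1 tissue or listed in B73.

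The remaining hosts had values close to the smallest in the libraries. Zm00001d036704 summed to 0.0545 RPM and 0.171 RPM in the B73 roots and 0.147 RPM in stem, so its circRNA was higher in stem than in V1 root. Zm00001d052543 had none in V1 root, 0.228 RPM in 6DAS root and 0.0629 RPM in the third leaf. Zm00001d050897, Zm00001d008299, Zm00001d034387 and Zm00001d031689 reached at most 0.190 RPM in any B73 root, a value of Zm00001d008299, which was found in no other B73 tissue. The others were higher outside the root than in either B73 root. Zm00001d050897 had 0.0735 RPM in stem, Zm00001d034387 0.0824 RPM in topmost leaf-N at V3 and Zm00001d031689 0.0796 RPM in 2 mm ear. Of the 10 members with the highest lower root value 4 hosted a circRNA of the B73 catalogue, and Zm00001d031909 had none placed on B73.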

How the data were processed

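The members, the lists and the tests were chosen with earlier results of these data known. The B73 and F1 mRNA tables hold a signal whose unit is not named, as deposited by the authors; the Mo17 table was deposited by the authors in TPM, and the circRNA tables in RPM. Per the submitters' processing notes, SAMtools, TopHat, StringTie and HISAT were used and the build was B73 RefGen_v4, with no version or role given; circRNA positions carry the source name circexplorer2 per the file headers and columns. Multiplied by 3, 98.7% of the values of unpaired F1 genes had at most 6 decimals (tolerance 0.02 of the last), against 52.5% for paired F1 genes, so paired F1 values were made in another way, which the sources used here do not give. Every per-sample column was used, and the total RNA library and a pair of tassel tables were not.

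Tests used limma 3.58.1 (R 4.3.3) with a trended prior variance. Adjustment was by Benjamini-Hochberg over all features, at 0.05. For mRNA, log2(scaled value + 1) was used where 2 libraries or more reached 1; for circRNA, log2(RPM + the smallest value above 0) for those above 0 in at least 2. Fold changes on these scales understate the change of low features. The root test set 2 libraries against 24 tissues taken as replicates of a class, so its p-values measure spread between tissues. In the stage test the line was the block: the V1 and 6DAS roots of a line come from 1 genotype, and their deviations from the stage means correlated at 0.88, 0.76 and 0.43 in B73, Mo17 and F1. RPM values gave no whole reads, so no count test was run.

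Named genes were the 10 members with the highest lower root value, 5 by ratio, the 5 lowest and 3 highest in Mo17 against B73, 3 per stage, the leading circRNA hosts and those nearest the limits. Lists by gene name could not be applied, since no identifier matched the reference table of Zm-B73-REFERENCE-NAM-5.0.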

Additional observations from a re-analysis of the deposited data

Results flagged for a closer look

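The V1 SAM library stood apart from the other 8 meristem, ear and tassel libraries in its summed level of root-restricted genes, by the gap to its nearest neighbour over the range of the 9. In B73 the 201 members summed to 261.6 in V1 SAM and 114.1 in the next library, and the 57 paired members to 21.1 and 11.7. In F1 the 201 members summed to 198.7 and 60.1. Mo17, and the paired members in F1, did not pass the same criterion. These 5 sets share genes and libraries, and chance flags about 1 in 20 groups. Zm00001d023994 alone had 145.0 of the B73 sum and 70.7 of the F1 sum. Without it V1 SAM was still the highest of the 9, at 116.6 against 77.8 in B73 and 128.0 against 55.6 in F1. The gap criterion was not applied to the sums without this gene, so these values do not show that the flags hold without it. The median V1 SAM value of a member was 0.274% of its V1 root value in B73, 0.236% in F1 and 0.159% in Mo17, beside 0.0422%, 0.0576% and 0.0601% for the mean of the other 8 libraries. What these values come from was not tested.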

How the results depend on the processing

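Leaving out a root library left 24 to 26 members called of 35 tested in Mo17 and 90 to 98 of 109 tested in F1; fewer members passed the filter on low values, and why others lost their call was not tested. Between V1 and 6DAS, 0 of 57 members were called with no filter and 0 with no replicate block, where 0% of all genes were called too, against 27 with the block, and leaving out a line gave 0 to 34. The B73 and F1 test gave 0 of 201 with no replicate block, and 0% of all genes, against 96 with it. The V1 minus 6DAS difference of Zm00001d022084, -0.12 and not called, was -0.61 to 0.66 with a line left out and was called at 0.66, without Mo17; the cause was not tested. In hosted circRNAs, asking for at least 5 libraries left 3 tested and called in B73 and 3 in F1, and leaving out a root library left 7 to 8 in B73, 6 to 7 in F1 and 1 in Mo17. Other pseudocounts (0.1 and 10), values as deposited, organ classes, 3-fold and 10-fold rules, and analyses without leaf tips or V1 SAM kept each mRNA root count within 1.5 times of its value: 40 to 74 in Mo17 and 142 to 272 in F1. The 3-fold and 10-fold rules choose other lists of members, so their counts also follow the length of the list. At 10-fold the B73 list held 142 of the 201 members. The ranges therefore do not by themselves show how stable the calls were. No circRNA of the members could be tested above 0 in 5 Mo17 libraries. Over these alternatives the named genes kept their root call in 229 cases and lost it in 13 in F1, and kept it in 122 and lost it in 8 in Mo17. In the stage comparison they kept their side of the threshold in 92 cases, lost a call in 31, gained one in 4 and changed sign in 1.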
